A study of Homo sapiens with 8 samples.

Results

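The SR proteins and the heterogeneous nuclear ribonucleoproteins (hnRNPs) were examined in HEL cells across 4 groups of arrays, together with the polypyrimidine tract binding (PTB) proteins and the factors U2AF1, U2AF2 and SF3B1. The 42 genes were taken by symbol from the array annotation, and probe sets, the groups of short probes that report on a transcript, were used where they name a single gene. Of the 42 genes, 39 had such a probe set, among 19775 genes on the array, and they carried 154 of its 41097 single-gene probe sets. SRSF2, SRSF9 and HNRNPH2 had only probe sets that name several genes (3, 2 and 1), which were not used. SRSF12 had 2 probe sets, and neither rose above the median signal of all values (60.0) on 2 or more arrays. This left 38 genes with 132 probe sets, of which 36 genes had at least 2. Values per gene come from its brightest probe set by mean log2(signal + 10) over all arrays, called its representative, and for the 38 genes that probe set lay above the median signal on all 8 arrays, between 603 and 32417 signal units.

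SR proteins carry RNA recognition motifs and a domain rich in arginine and serine, bind exonic enhancer sequences and usually promote the use of nearby splice sites. Kinases of the SRPK and CLK families phosphorylate that domain and so govern where the proteins reside and how they act. The hnRNPs coat nascent transcripts, and many of them repress exons or splice sites, while U2AF1, U2AF2 and the U2 component SF3B1 recognize the 3′ splice site and the branch point. Many SR and hnRNP genes make transcripts with a poison exon that are degraded by nonsense-mediated decay, by which the proteins regulate their own levels. Several of these proteins are methylated on arginine, and PRMT5 is among the enzymes that make symmetric dimethylarginine.

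HEL is an established human erythroleukaemia line with an activating mutation of the kinase JAK2, grown in RPMI medium with serum. CEP701 (lestaurtinib), which inhibits JAK2 and FLT3, was given at 0.5 µM for 16 h on 2 arrays, and 2 arrays came from cells kept with its vehicle, DMSO, for the same time. In the remaining arrays, 2 came from a stable line carrying a lentiviral pLKO shRNA against PRMT5 and 2 from cells with a scramble shRNA, with no time after transduction given. The series asked how the profile of the drug-treated cells compares with that of the knockdown cells. The labels do not say that replicates were separate cultures, so p-values measure the spread between these arrays, which may be technical.

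PRMT5 itself had a signal of 664 and 315 on the PRMT5 shRNA arrays against 1794 and 984 on the scramble arrays, so the groups did not overlap. Its log2 difference was -1.52 ± 0.35 (SE, n = 2 per group), which did not pass (adjusted p = 0.217). These values are from 1564520_s_at. The other PRMT5 probe sets were also lower without overlap. On 217786_at the signals were 500 and 289 against 989 and 735, and on 1564521_x_at 474 and 350 against 1350 and 628. The drug arm and the shRNA arm stood apart. Between-array correlation was 0.964 to 0.978 within a group and 0.804 to 0.845 between arms. The HEL markers GATA1, TAL1 and ITGA2B were measured in both arms (GATA1 210446_at at 1072 to 2196, TAL1 206283_s_at at 7336 to 8919), and 8 of the 11 listed HEL markers could be measured. Other HEL markers differed between arms: PF4 was at 1054 to 1980 in the drug arm and 21810 to 45436 in the shRNA arm, and JAK2 (205841_at) at 1670 to 2681 and 424 to 561. In sum the HEL markers were at 22930 to 26395 and 41974 to 71170, and the higher sum in the shRNA arm came from PF4. Of the 8, 3 were higher and 2 lower in scramble than in DMSO cells by the test. The epithelial markers KRT19 (201650_at) and EPCAM were at 1.54 to 4.52 and 23.3 to 49.8 in the drug arm, and at 525 to 2517 and 484 to 2753 in the shRNA arm. Others on that list went the other way. KRT8 was at 69.8 to 201 in the drug arm and 42.3 to 95.1 in the shRNA arm, and COL1A1 (217430_x_at) at 338 to 476 and 199 to 261. Of the 6 epithelial and fibroblast markers, 2 were higher and 1 lower in scramble than in DMSO cells by the test. Monocyte and granulocyte markers summed to 5303 to 8981 in the drug arm and to 40123 to 68106 in the shRNA arm, all 4 genes measured. Among them MPO, ELANE and CD14 stayed at or below 63.5 in the drug arm. MTAP, a gene often lost with its neighbours, was at 1.79 to 13.9 in the drug arm and at 299 to 486 in the shRNA arm (204956_at). Cell stock, vector, culture and time cannot be told apart in a comparison of the arms. Signals came from whole-cell RNA at a fixed scale per array, so a lower signal can reflect less RNA per cell or fewer expressing cells.

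**Figure D1:**
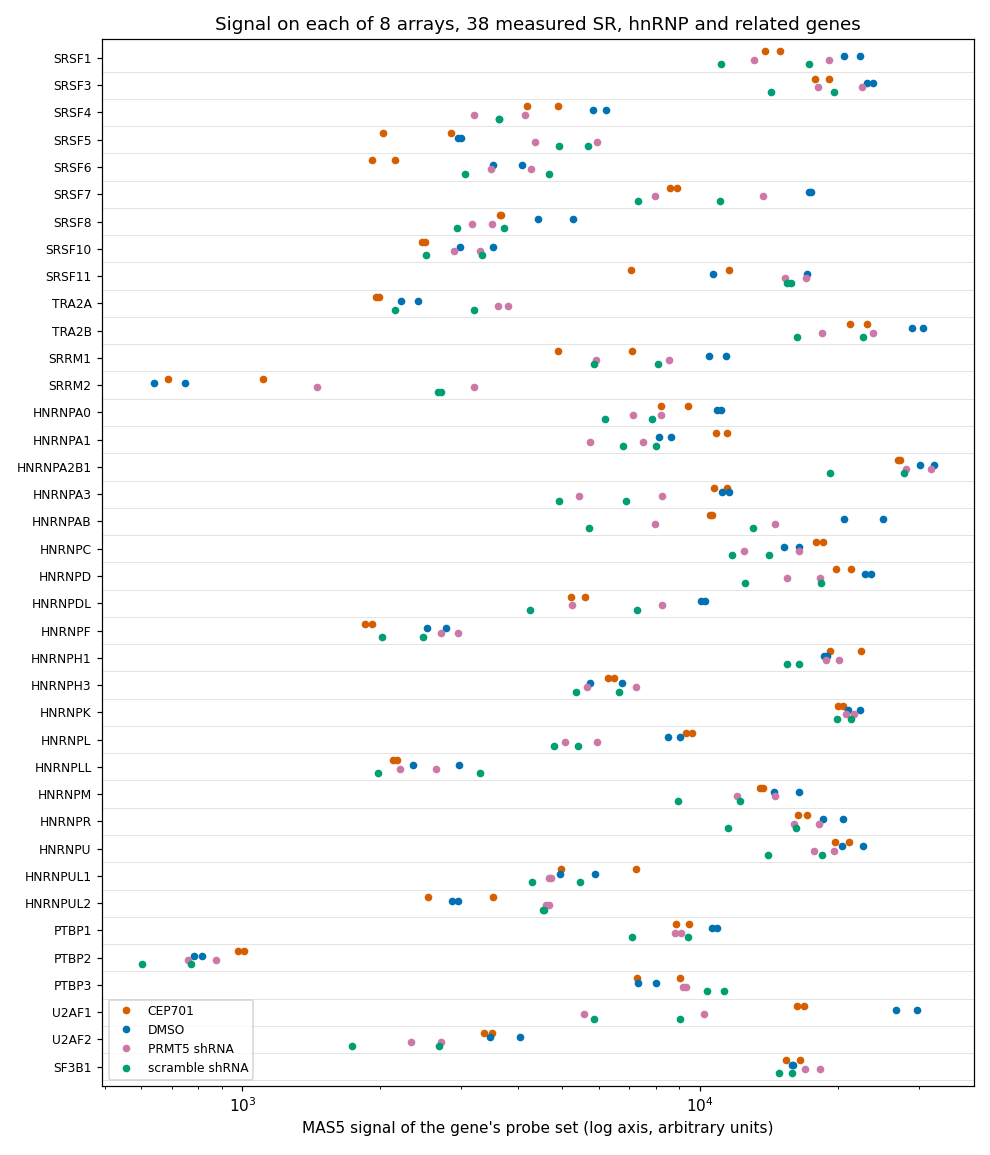
Deposited MAS5 signal (log axis, arbitrary units) of the representative probe set of each of the 38 measured genes. Each point is 1 array, coloured by group, with 2 arrays per group; U2AF1 lies between 26789 and 29707 on the DMSO arrays and at 10173 or below on the 4 shRNA-arm arrays.

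CEP701-treated cells were first compared with DMSO-treated cells. The 5′ to 3′ signal ratios of actin, which move with RNA and labelling quality, did not overlap. They were 0.116 and 0.161 with CEP701 and 0.199 and 0.198 with DMSO. GAPDH ratios overlapped, at 0.787 and 0.856 against 0.882 and 0.809. The part of these ratios in the drug comparison was not tested. Of the 38 genes, SRSF6, an SR protein that acts through exonic enhancers, was the one that passed, and it was lower with the drug. The signal of SRSF6 (208804_s_at) was 1918 and 2159 with CEP701 and 3529 and 4080 with DMSO. Both treated arrays lay below both vehicle arrays, a log2 difference of -0.90 ± 0.21 (SE, n = 2 per group; adjusted p = 0.0419), or 1.86-fold lower. Its other probe set, 206108_s_at, read 248 and 408 against 473 and 563, with a log2 difference of -0.68 that did not pass (adjusted p = 0.136). Over all 14162 genes tested, 5.78% were called in this comparison, 2.04% as lower and 3.74% as higher. The 1 call among 38 genes (2.63%), a lower one, was below the share in either direction and near the share of lower calls. The SRSF6 call was lost without any single drug-arm array (adjusted p from 0.153 to 0.258), with no filter (0.0567), with quantile normalization (0.0777) and with the mean of its probe sets (0.0550), while its log2 difference stayed between -1.40 and -0.79 in all 20 alternatives.

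SR and SR-related genes were mostly lower with CEP701 in sign. Of 13 measured, 12 had a negative difference and 11 had both treated arrays below both vehicle arrays, with a median log2 difference of -0.42. Over all genes 41.9% were negative, 25.7% had non-overlapping lower signals, and the median was 0.10. SRSF7, which binds enhancer elements and shuttles to the cytoplasm, read 8609 and 8883 with CEP701 and 17331 and 17502 with DMSO. Its difference of -0.99 ± 0.25 missed the threshold (adjusted p = 0.0523). SRRM1, a coactivator that bridges enhancer-bound SR proteins to the spliceosome, read 4902 and 7103 against 10477 and 11396, with a difference of -0.89 ± 0.24 (adjusted p = 0.0609). SRSF1, the founding SR protein, read 14971 and 13867 against 20615 and 22349 (-0.57, adjusted p = 0.159). The exception in sign was SRRM2, a large SR-related protein of nuclear speckles, at 686 and 1109 against 749 and 640.

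The hnRNPs were more mixed. None of the 19 measured passed, 12 were negative and 7 positive, 10 had non-overlapping lower and 4 non-overlapping higher signals, and the median was -0.09. HNRNPAB, a binder of AU-rich RNA, read 10498 and 10599 with CEP701 and 20634 and 25085 with DMSO, with a difference of -1.11 ± 0.36 (adjusted p = 0.103). HNRNPDL, a relative of HNRNPD, read 5617 and 5215 against 10052 and 10252 (-0.91 ± 0.26, adjusted p = 0.0764). HNRNPF, which binds runs of G, read 1857 and 1922 against 2533 and 2778 (-0.49 ± 0.16, adjusted p = 0.0942). In these 3 genes the treated arrays lay below the vehicle arrays with no overlap. HNRNPA1, a repressor of exon inclusion, went the other way, at 10808 and 11450 against 8127 and 8631 (0.41 ± 0.16, adjusted p = 0.153). Near-identical copies of HNRNPA1 are known and its probe set is of the kind that can cross-hybridize, so the source of this signal is uncertain. The representatives of SRSF7, SRSF8, HNRNPC, HNRNPU and PTBP1 are of that kind too, with names that end in _x_at. Without such probe sets 26 of 37 measured genes were negative with CEP701, with a median of -0.23. Under scaling to the poly-A controls the sign of HNRNPA1, like that of all 38 genes, was negative.

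Among the remaining genes, U2AF1, which contacts the AG of the 3′ splice site, read 16317 and 16851 with CEP701 and 26789 and 29707 with DMSO (-0.77 ± 0.27, adjusted p = 0.126). A near-identical copy of this gene is known, so its signal may not come from U2AF1 alone. U2AF2, its partner, and SF3B1 had overlapping groups (differences of -0.12 and 0.00). Of the PTB proteins, which repress exons flanked by pyrimidine-rich tracts, PTBP1 was at -0.23, the neuronal paralogue PTBP2 at 0.31 and PTBP3 at 0.08, none of them passing. Across the 38 genes, 27 were negative, 23 had non-overlapping lower and 5 non-overlapping higher signals (36.3% of all genes were higher without overlap), and the median was -0.23. At an unadjusted p under 0.05, 11 were lower (9.23% of all genes) and 1 was higher (14.8%).

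The median of the 38 genes lay below that of all genes under each scaling tried. Under the deposited scaling the medians were -0.23 and 0.10, under quantile normalization -0.17 and 0.03, under scaling to array medians -0.48 and -0.14, and under scaling to the poly-A spike-in controls -0.73 and -0.38. Of the 38 genes 27, 25, 35 and 38 were negative in that order. With the mean of each gene's probe sets in place of the brightest, 21 were negative, the median was -0.14, no gene was called, and SRSF7 was at -0.33. Under the 4 scalings the number of the 38 genes called was 1, 0, 5 and 7, and calls over all genes were 530 higher and 289 lower, 281 and 174, 241 and 676, and 97 and 966. Changes are given on the deposited scale.

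The titles pair each PRMT5 shRNA array with a scramble array through a common suffix. Entering that pair as a block in the joint fit moved the drug comparison as well, since the fit pools the spread over all arrays. With this replicate block 15 of the 38 genes were called, 14 lower and 1 higher, against 22.3% of all genes. The lower ones were HNRNPAB, SRSF7, HNRNPDL, SRSF6, SRRM1, U2AF1, SRSF1, HNRNPF, TRA2B, SRSF4, SRSF8, SRSF10, SRSF3 and HNRNPA0, and the higher one HNRNPA1 (adjusted p = 0.0470). Their adjusted p-values ran from 6.80e-05 for SRSF7 to 0.0470. With the drug arm fitted on its own 4 arrays, 14 genes were called, against 22.7% of all genes. Without any single drug-arm array none of the 38 genes was called, and the share of all genes called fell as well.

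**Figure D2:**
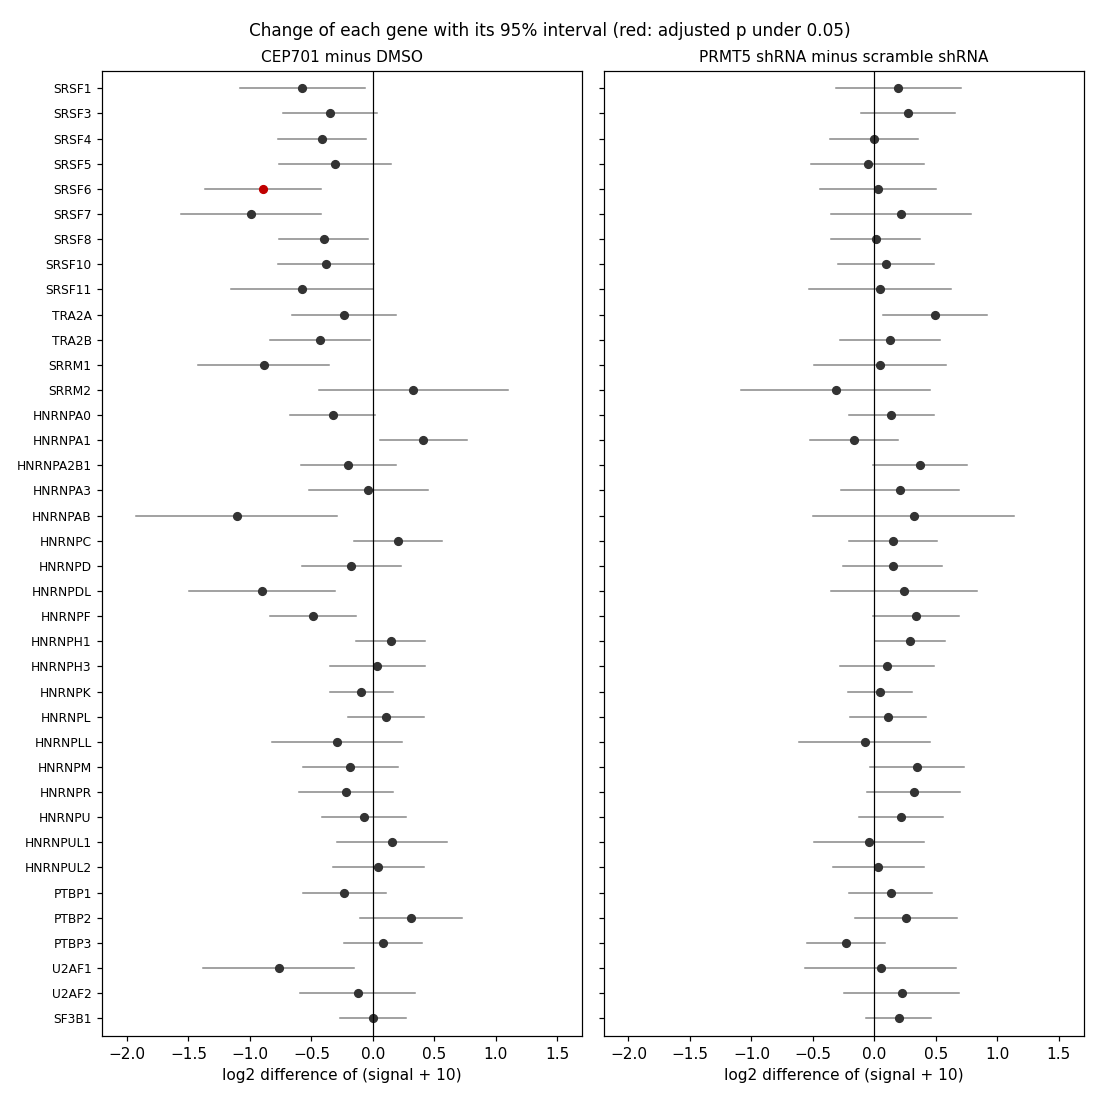
Log2 difference of (signal + 10), with its 95% interval from the limma fit, for each of the 38 measured genes (n = 2 arrays per group). The left panel compares CEP701 with DMSO and the right panel PRMT5 shRNA with scramble shRNA; red marks the single call, SRSF6 in the left panel, and the medians are -0.23 and 0.13.

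By single probe sets, 6 of 132 were called with CEP701, against 4.78% of 26725 probe sets. Lower were SRSF6 208804_s_at, HNRNPDL 201993_x_at, TRA2B 200892_s_at and SRSF3 202899_s_at. HNRNPDL 201993_x_at read 4837 and 4580 with CEP701 and 10678 and 9698 with DMSO (-1.11, adjusted p = 0.0170). TRA2B, which binds GAA-rich enhancers, read 4377 and 4760 against 8412 and 8726 at 200892_s_at (-0.91, adjusted p = 0.0279). SRSF3, the smallest SR protein, read 9645 and 9155 against 15487 and 16319 at 202899_s_at (-0.76, adjusted p = 0.0496). In each of these the treated arrays were lower without overlap. Higher were HNRNPUL1 209675_s_at, at 1240 and 1302 against 805 and 619 (0.84, adjusted p = 0.0403), and SRRM2 1554671_a_at, at 129 and 137 against the dim values 35.1 and 11.8 (2.19, adjusted p = 0.0406). The representative probe sets of HNRNPUL1 and SRRM2 had overlapping groups.

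Whether the probe sets of a gene changed unequally was tested by an F test within the gene. With equal weights SRSF1 was called with CEP701 (7 probe sets, adjusted p = 0.0257), against 0.244% of 6954 genes. Its probe sets ran from -1.38 to 0.84. The brightest of those with a positive difference, 226419_s_at, read 647 and 664 with CEP701 and 433 and 564 with DMSO, while 208863_s_at read 2443 and 2493 against 4150 and 4462. Equal weights called too many genes on simulated data with unequal spread between probe sets, and with precision weights, added after that was seen, SRSF1 was not called (adjusted p = 0.284, and 0 of 36 genes, against 0.302%). It is therefore not counted as an unequal change.

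Promoter sequences from RefSeq (GRCh38.p14) were matched for 39 of the 42 genes, using the first start listed where a gene has several, from 250 bases before to 50 after the start. They are shown for SRSF6, SRSF7 and HNRNPDL, whose signals were lower on both CEP701 arrays, and for HNRNPD, whose probe sets differed between the control groups, as the 200 bases that precede the start. Capitals mark matches, on either strand, to the motifs described next.
SRSF6 (chr20:43457696-43457895, plus strand): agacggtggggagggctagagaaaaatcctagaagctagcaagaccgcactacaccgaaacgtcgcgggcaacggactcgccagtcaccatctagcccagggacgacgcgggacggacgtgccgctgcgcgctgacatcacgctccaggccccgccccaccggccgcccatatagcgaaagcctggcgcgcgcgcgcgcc
SRSF7 (chr2:38751495-38751694, minus strand): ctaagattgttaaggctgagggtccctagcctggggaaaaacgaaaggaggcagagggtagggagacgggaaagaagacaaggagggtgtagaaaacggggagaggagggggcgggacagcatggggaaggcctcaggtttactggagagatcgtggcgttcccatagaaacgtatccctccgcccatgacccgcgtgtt
HNRNPDL (chr4:82430226-82430425, minus strand): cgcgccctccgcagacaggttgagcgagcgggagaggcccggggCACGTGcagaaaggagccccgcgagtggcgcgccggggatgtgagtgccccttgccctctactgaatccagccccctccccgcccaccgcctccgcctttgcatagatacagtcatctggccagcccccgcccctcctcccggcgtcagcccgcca
HNRNPD (chr4:82373992-82374191, minus strand): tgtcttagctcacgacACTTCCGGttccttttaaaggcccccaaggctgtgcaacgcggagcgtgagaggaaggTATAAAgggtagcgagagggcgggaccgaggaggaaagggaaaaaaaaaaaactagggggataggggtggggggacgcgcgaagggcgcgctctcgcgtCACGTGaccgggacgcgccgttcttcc

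Letter patterns were searched on both strands of the 300-base windows. The E-box CACGTG, read by MYC among others, was in 8 of the 39 promoters and in 7.43% of 27305 promoters. The ETS pattern CCGGAAGT was in 4 (4.44% of all). The CG-rich palindrome read by BANP was in 2, those of HNRNPK and SRSF10 (0.469%). CCAAT was in 17 (35.7%) and TATAAA in 5 (12%). TTCNNNGAA, the pattern read by STAT factors downstream of JAK2, was in 1, that of HNRNPR (7.88%). No matches of different patterns overlapped in these 39 windows. A match describes letters only, and a missing match says only that the letters are not in that window.

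The knockdown arm was compared next, PRMT5 shRNA with scramble shRNA. None of the 38 genes and none of the 132 probe sets passed, by limma, against 0.148% of all genes and 0.131% of all probe sets. At an unadjusted p under 0.05 there were 2 genes (2.39% of all genes were higher at that p) and 8 probe sets (2.5%), all higher. The smallest p was that of TRA2A, a regulator related to TRA2B, which read 3808 and 3611 with PRMT5 shRNA and 3200 and 2158 with scramble (0.50 ± 0.19, adjusted p = 0.662). HNRNPH1, which binds runs of G, read 18841 and 20130 against 16430 and 15444 (0.29 ± 0.13, adjusted p = 0.739). HNRNPF read 2965 and 2711 against 2482 and 2015 (0.34, adjusted p = 0.754). In these 3 genes the knockdown arrays lay above the scramble arrays without overlap. HNRNPA2B1, at 31905 and 28132 against 27900 and 19257, also did not overlap (0.37, adjusted p = 0.764). HNRNPM, at 14605 and 12068 against 12223 and 8938, overlapped, with the second knockdown array below the first scramble array (0.34, adjusted p = 0.775).

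The 5′ to 3′ signal ratios of actin and GAPDH move with RNA and labelling quality. Actin ratios were 0.187 and 0.335 on the PRMT5 shRNA arrays and 0.141 and 0.179 on the scramble arrays, without overlap. GAPDH ratios went the other way, at 0.729 and 0.778 against 0.846 and 0.883, also without overlap. The part of these ratios in this comparison was not tested. By sign, 32 of the 38 genes were higher in the knockdown and 6 lower, with a median of 0.13, where 50.5% of all genes were higher and the median was 0.00. By role the medians were 0.05 for the 13 SR and SR-related genes, 0.15 for the 19 hnRNPs, 0.13 for the 3 PTB proteins and 0.20 for U2AF1, U2AF2 and SF3B1. Groups that did not overlap were few, 6 higher (14.1% of all genes) and 1 lower (16.1%), the lower one PTBP3 at 9158 and 9304 against 10371 and 11286. Compared within the pairs that share a title suffix, 24 of 38 genes were higher in both pairs and 1 was lower in both, where 30.1% of all genes were higher and 29.4% lower in both. With the pair as a replicate block no member passed (247 genes did, 1.74%), and the lowest adjusted p was 0.0938, for TRA2A. Within the pairs the medians were 0.15 and 0.18, against 0.00 and 0.00 for all genes. Leaving out 1 array, which breaks a pair, moved the median: it was -0.03 without the first PRMT5 shRNA array and -0.03 without the second scramble array, and 0.27 and 0.33 without the other array of each group. With the mean of its probe sets, the differences of TRA2A and HNRNPA2B1 were -0.02 and -0.05.

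Among the probe sets, SRSF11 213742_at had the smallest p, at 548 and 576 with PRMT5 shRNA against 363 and 346 with scramble (0.65, adjusted p = 0.319). SRSF11 is an SR-related protein that helps recognize the 3′ splice site. Its representative probe set, 200686_s_at, was at 0.05. HNRNPU 216855_s_at had the widest difference of the 132, at 99.8 and 76.2 against the dim values 13.3 and 14.1 (2.04, adjusted p = 0.576). None of the 36 genes had probe sets that differed in change, with equal weights (0.0863% of genes) or with precision weights (0 of 6954 genes).

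The effects of drug and knockdown, which share no arrays, were then set against each other by a test of their difference. None of the 38 genes passed, against 1.43% of all genes, and at an unadjusted p under 0.05 there were 11 more negative (7.75% of all genes) and 1 more positive (12.1%) with the drug. The smallest p was that of HNRNPF, lower by 0.49 with CEP701 and higher by 0.34 with PRMT5 shRNA on the log2 scale, a difference of -0.83 ± 0.22 (adjusted p = 0.0954). SRSF7 differed by -1.21 ± 0.36 (adjusted p = 0.118), SRSF6 by -0.92 ± 0.30 (0.140), HNRNPDL by -1.15 ± 0.37 (0.143) and SRRM1 by -0.93 ± 0.34 (0.175). By sign the difference was negative for 31 of 38 (43.2% of all genes), and 25 were lower with the drug and higher with the knockdown in sign, against 24.3% of all genes. With the replicate block 15 genes passed, all with a more negative value for the drug, against 17.3% of all genes. These were HNRNPAB, SRSF7, HNRNPDL, SRRM1, SRSF6, HNRNPF, U2AF1, SRSF1, TRA2A, SRSF3, HNRNPA2B1, TRA2B, HNRNPR, HNRNPM and HNRNPA0. In the unblocked fit the median difference of the 38 genes was -0.39 (0.11 for all genes), and it moved with the arrays used. It was -0.59 without the first scramble array and -0.51 without the second PRMT5 shRNA array. Without the first PRMT5 shRNA array it was -0.29, and without the second scramble array -0.20.

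The 2 control groups, scramble shRNA and DMSO, differed most. This comparison shares its DMSO arrays with the drug comparison and holds cell stock, vector, culture and time together. Of the 38 genes 22 passed, 18 lower and 4 higher in the scramble cells, where 45.8% of all genes passed, 20.3% lower and 25.5% higher. By sign 32 of 38 were lower (45.4% of all genes), 26 were lower without overlap (33.2%) and 4 higher without overlap (40.8%). Under quantile normalization 26 of 38 were lower by sign, and under scaling to array medians or poly-A controls 34. Actin 5′ to 3′ signal ratios were 0.141 and 0.179 in the scramble and 0.199 and 0.198 in the DMSO arrays, without overlap. With CEP701 they were 0.116 and 0.161. Those of GAPDH were 0.846 and 0.883, 0.882 and 0.809, and 0.787 and 0.856 in that order. Their part in the results was not tested, nor was that of the monocyte and granulocyte markers, which were 55449 to 64205 in sum in the scramble and 5303 to 5320 in the DMSO arrays.

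Of the 13 SR and SR-related genes 7 were lower and 2 higher. SRRM2 was higher, at 2715 and 2677 in the scramble cells against 749 and 640 with DMSO (1.95 ± 0.34, adjusted p = 0.00141), and it passed in all 19 alternatives. SRSF5, a serum-responsive SR protein, read 4925 and 5688 against 2957 and 3007 (0.83 ± 0.20, adjusted p = 0.00882). SRSF7 was lower, at 11059 and 7328 against 17331 and 17502 (-0.95 ± 0.25, adjusted p = 0.0127). SRSF4 read 3638 and 3636 against 6228 and 5831 (-0.73 ± 0.16, adjusted p = 0.00468), and SRRM1 8106 and 5862 against 10477 and 11396 (-0.66 ± 0.24, adjusted p = 0.0451). SRSF1, SRSF3, SRSF8 and TRA2B were the other calls, between -0.64 and -0.49. SRSF6, the gene called with the drug, had overlapping groups here (4679 and 3071 against 3529 and 4080).

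Of the 19 hnRNPs 9 were lower and 1 higher. HNRNPAB read 13062 and 5718 in the scramble cells against 20634 and 25085 with DMSO (-1.40 ± 0.36, adjusted p = 0.0115), with a wide gap between the scramble arrays. HNRNPA3, a relative of HNRNPA1, read 6883 and 4910 against 11152 and 11592 (-0.97 ± 0.21, adjusted p = 0.00502). HNRNPL, which binds CA repeats, read 5414 and 4785 against 8501 and 9029 (-0.78 ± 0.14, adjusted p = 0.00135). HNRNPDL was at -0.87 (adjusted p = 0.0232) and HNRNPA0 at -0.66 (0.00656), and HNRNPD, HNRNPM, HNRNPR and HNRNPU were between -0.62 and -0.42. HNRNPUL2 was the higher one, at 4529 and 4550 against 2865 and 2952 (0.64 ± 0.16, adjusted p = 0.0107).

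U2AF1 had the largest fall, at 9044 and 5859 in the scramble cells against 26789 and 29707 with DMSO, 3.87-fold lower (-1.95 ± 0.27, adjusted p = 0.00038). U2AF2 read 2692 and 1731 against 3477 and 4042 (-0.79 ± 0.21, adjusted p = 0.0116), while SF3B1 was at -0.05. Of the PTB proteins PTBP3 was higher, at 10371 and 11286 against 8014 and 7306 (0.50 ± 0.14, adjusted p = 0.0168), and PTBP1 and PTBP2 did not pass. The calls and the size of the differences depended on the arrays and the scaling. The median of the 38 genes was -0.41 with all arrays (0.11 for all genes), -0.43 without the first DMSO array and -0.36 without the second. It was -0.66 without the first scramble array and -0.26 without the second. The rises of SRSF5, HNRNPUL2 and PTBP3 were 0.46, 0.28 and 0.14 under scaling to array medians and did not pass there. With the mean of probe sets SRSF7 was at -0.09 (adjusted p = 0.698), HNRNPDL at -0.12 (0.640), HNRNPA0 at -0.21 (0.237), SRRM1 at -0.40 (0.198) and SRSF4 at 0.14 (0.723), none of them passing. U2AF1, HNRNPA3 and HNRNPL passed in each of their 19 alternatives.

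**Figure D3:**
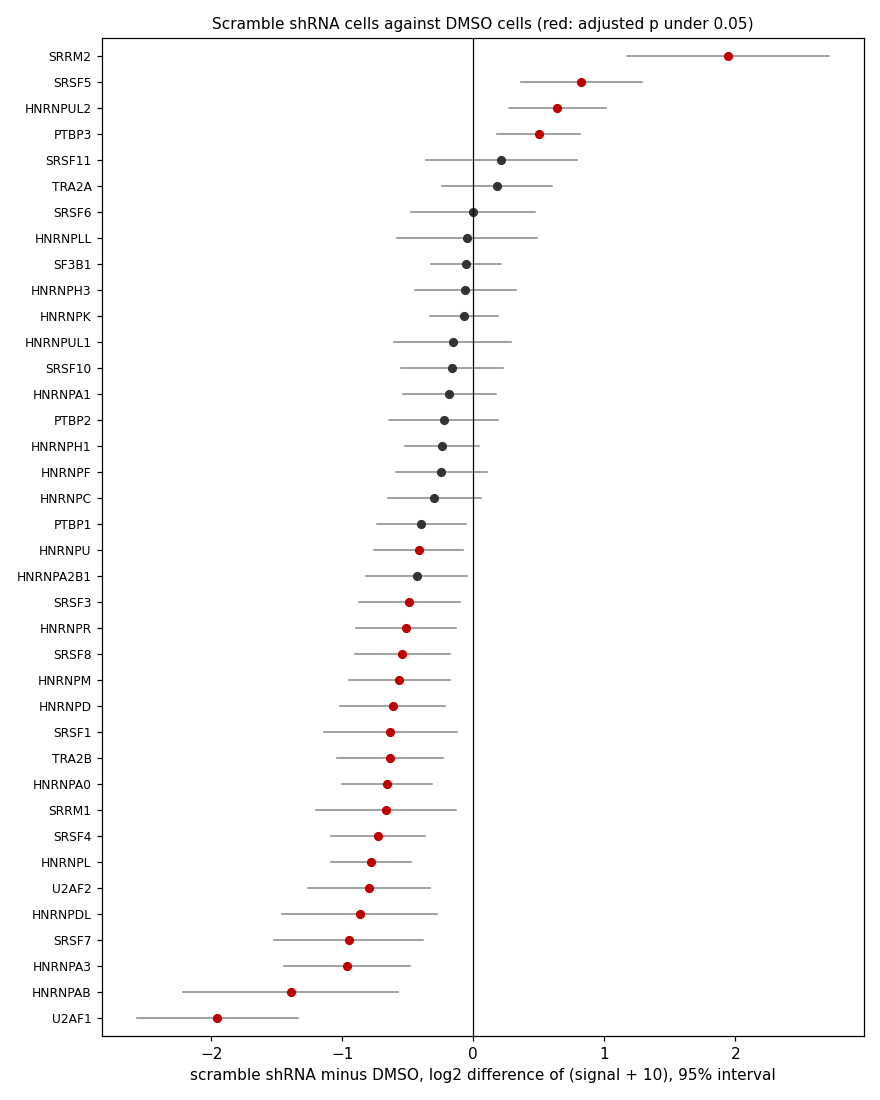
Log2 difference of (signal + 10) between scramble shRNA and DMSO cells, with its 95% interval, for each of the 38 measured genes ordered by size (n = 2 arrays per group, red for adjusted p under 0.05). Red points number 18 below 0, from U2AF1 at -1.95, and 4 above 0, up to SRRM2 at 1.95.

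Probe sets of a gene often differed between the control groups. By probe set 67 of 132 passed, 52 lower and 15 higher, against 41.7% of all probe sets. By the F test 8 of 36 genes had probe sets that changed unequally, against 12% of 6954 genes, and with precision weights these 8 and HNRNPA1 did (9.05%). The 8 were HNRNPD, HNRNPC, HNRNPDL, SRSF7, TRA2A, HNRNPA2B1, SRSF11 and HNRNPA0. Which exon or 3′ end each probe set reads was not used here, so an unequal change cannot be assigned to an isoform.

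HNRNPD, the AU-rich element binding protein AUF1, had the widest split (7 probe sets, adjusted p = 2.70e-07). Its probe set 213359_at read 88.3 and 97.6 with DMSO and 1146 and 1841 in the scramble cells (3.83, adjusted p = 7.54e-05). Its representative 200073_s_at fell from 22965 and 23588 to 18390 and 12533 (-0.62). On 213359_at the knockdown arrays read 1517 and 1090 and the CEP701 arrays 105 and 300, so the split followed the arm. HNRNPC, a binder of poly-U tracts, showed the same kind of split (6 probe sets, adjusted p = 2.45e-06). Its 227110_at fell from 3984 and 3857 to 1937 and 1260 (-1.32) and its dim 235500_at rose from 15.1 and 10.1 to 86.0 and 179 (2.59), while the 4 bright probe sets lay between -0.41 and 0.22.

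HNRNPDL (5 probe sets, adjusted p = 0.000706) had 3 probe sets lower by 0.70 to 0.87 and 212454_x_at higher, from 1368 and 1253 to 3406 and 3573 (1.41, adjusted p = 0.000214). SRSF11 (4 probe sets, adjusted p = 0.0150) did not pass at 200686_s_at (0.21) and lower at 213742_at, from 1769 and 1747 to 363 and 346 (-2.28). At 213742_at the CEP701 arrays read 2439 and 2325, so both drug-arm groups lay above both shRNA-arm groups. SRSF7 (4 probe sets, adjusted p = 0.00568) was lower at 214141_x_at and 201129_at and higher at 213649_at, from 597 and 505 to 815 and 1101 (0.78).

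TRA2A (3 probe sets, adjusted p = 0.0131) was at 0.18 on its representative and rose at 229574_at, from 50.5 and 112 to 451 and 331 (2.21), and at 213593_s_at, from 52.7 and 53.9 to 287 and 252 (2.14). HNRNPA2B1 (3 probe sets, adjusted p = 0.0148) rose at 225107_at, from 321 and 323 to 867 and 1050 (1.54), while 205292_s_at was at -0.43. HNRNPA0 (3 probe sets, adjusted p = 0.0493) fell at 201054_at (-0.66), and 201055_s_at was at 0.29. On 229574_at and 213593_s_at of TRA2A and on 225107_at of HNRNPA2B1, both shRNA-arm groups lay above both drug-arm groups without overlap.

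**Figure D4:**
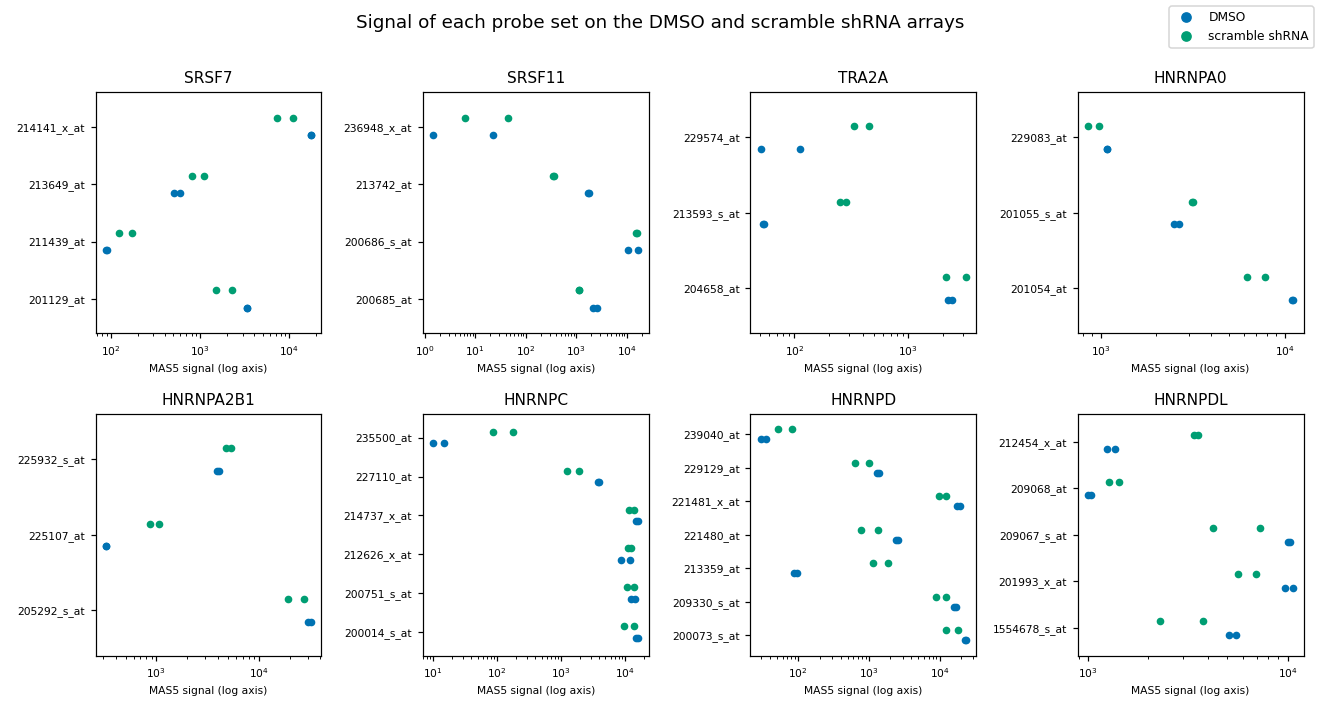
Deposited MAS5 signal (log axis) of each measured probe set of the 8 genes whose probe sets changed unequally, on the 2 DMSO and the 2 scramble shRNA arrays, 1 point per array. For HNRNPD, 213359_at moves from 88.3 and 97.6 to 1146 and 1841 while 200073_s_at moves from 22965 and 23588 to 18390 and 12533.

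Genes that act with these proteins were read from 5 further lists. Of the 9 measured genes on the list of SR protein kinases and their nuclear importer, 2 rose with CEP701, where 3.74% of all genes did. CLK4 read 598 and 546 with CEP701 and 244 and 262 with DMSO (1.14 ± 0.20, adjusted p = 0.0178). CLK1 read 1642 and 1752 against 870 and 832 (0.99 ± 0.18, adjusted p = 0.0199). Both are kinases of the arginine-serine domain, and neither passed between the knockdown and scramble cells (-0.21 with adjusted p = 0.91 for CLK4, 0.00 with adjusted p = 0.998 for CLK1). Between scramble and DMSO cells, which shares the DMSO arrays, both were higher by limma (1.86 with adjusted p = 8.57e-05 for CLK4, 1.23 with adjusted p = 0.000494 for CLK1). SRPK1, the main cytoplasmic SR kinase, was at -0.68 and did not pass (adjusted p = 0.157).

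Of 30 core spliceosome genes measured and 10 of the exon junction complex and nonsense-mediated decay none passed with CEP701. Their medians were -0.17 and -0.30, and 22 and 7 were negative. Over all genes 5.78% passed in this comparison, 41.9% were negative and the median was 0.10. Of 36 other splicing regulators and RNA-binding proteins 2 fell and 1 rose (2.04% and 3.74% of all genes). FUBP1, a single-strand DNA and RNA binder, fell from 1928 and 2185 to 1055 and 1101 (-0.92, adjusted p = 0.0213), RBM17 fell from 6230 and 5824 to 4013 and 3829 (-0.62, adjusted p = 0.0489), and MBNL2, a regulator of developmental exons, rose from 1424 and 1368 to 2307 and 2349 (0.73, adjusted p = 0.0295). Among the 13 measured methyltransferases of arginine and partners of PRMT5, COPRS, which brings PRMT5 to histones, fell from 2077 and 2066 to 1158 and 996 (-0.94, adjusted p = 0.0481), and 12 of 13 were negative with a median of -0.42. With the knockdown no gene of these lists passed. By the test of the difference between drug and knockdown, MBNL2 (1.23, adjusted p = 0.0333) and FUBP1 (-1.23, adjusted p = 0.0457) passed. Without any 1 of the 4 drug-arm arrays, each of these calls on the drug and on the difference was lost, those of CLK4, CLK1, FUBP1, RBM17, MBNL2 and COPRS (adjusted p from 0.109 to 0.268 for the drug, 0.142 to 0.219 for the difference). CLK4 and CLK1 were also at 0.65 and 0.49 under scaling to the poly-A controls and did not pass there, MBNL2 was at 0.23, and with the mean of its probe sets FUBP1 was at -0.29. The drug calls of COPRS and RBM17 were lost with a pseudocount of 1, no filter, quantile normalization or the mean of probe sets. That of MBNL2 was lost with quantile normalization, median scaling, poly-A scaling or the mean of probe sets. The calls of MBNL2 and FUBP1 on the difference were also lost with poly-A scaling or the mean of probe sets. The signs of these 6 genes did not turn in the 20 alternatives.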

How the data were processed

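Gene expression was measured on 8 Affymetrix arrays from 200 ng of RNA each. The authors deposited linear signal intensity, computed with MAS5 in Affymetrix Expression Console per the submitters' processing notes; each array's mean without the lowest and highest 2% of values was about 500.

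10 was added, log2 was taken, and single-gene probe sets above the median signal (60.0) on at least 2 arrays were kept, 26725 for 14162 genes. All 8 arrays were fitted as 4 groups with limma 3.58.1 (lmFit, eBayes with trend) in R 4.3.3, with 4 residual and 5.37 prior degrees of freedom; adjusted p-values are Benjamini-Hochberg over all genes or probe sets, threshold 0.05. Probe sets of a gene were compared with diffSplice. The calculation was tested on simulated data. Members, lists and contrasts were chosen with earlier results of these data known. Members that passed without overlap (up to 10 each way), or the 5 of lowest p, got full statistics. Shared title suffixes pair the shRNA arrays (deviations r = 0.323); for the drug arrays r was -0.0115. The number of arrays limits the precision.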

Additional observations from a re-analysis of the deposited data

How the results depend on the processing

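Counts of the 38 genes, the 132 probe sets and the genes with unequal probe sets are given in that order. For CEP701 against DMSO they were 1, 6 and 1. With a pseudocount of 1, 2 genes had unequal probe sets, and with 50 the first counts were 2 and 10. They were 0, 2 and 0 with no filter, 3 and 11 with a stricter filter, 0, 1 and 2 with quantile normalization, 5 and 20 with median scaling, 7, 22 and 0 with poly-A control scaling, and 14, 37 and 3 with each arm fitted alone. The share of all genes called moved too. It was 5.78% in the main fit, 5.27% with a pseudocount of 1 and 6.03% with 50. With no filter it was 2.47%, with the stricter filter 10% and with quantile normalization 3.21%. With median scaling it was 6.49%, with poly-A control scaling 7.5% and with each arm fitted alone 22.7%. Without cross-hybridizing probe sets, and with precision weights (chosen after seeing the data), 0 genes had unequal probe sets. With the mean of probe sets 0 of the 38 genes were called, against 3.79% of all genes. For scramble shRNA against DMSO, quantile normalization gave 13 genes instead of 22, where 43.4% of all genes were called instead of 45.8%. Poly-A scaling gave 5 genes with unequal probe sets instead of 8. The mean of probe sets turned the sign of TRA2A (-0.018) and HNRNPA2B1 (-0.051) with the knockdown and of SRSF4 between the controls (0.14). The cause was not tested.

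With the replicate block in the shRNA arm the drug counts were 15, 36 and 6, and with a block in both arms 13 and 35. Of all genes 22.3% and 21.5% were called in these fits. The difference of the effects gave 15 and 35, and 14 and 33 with a block in both arms, instead of 0 and 0. Of all genes 17.3% and 16.2% were called, instead of 1.43%. The block changed no other count by more than 1.5 times.

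Leaving out 1 array at a time gave 0 to 5 genes, 0 to 15 probe sets and 0 to 2 genes with unequal probe sets for the drug, 0, 0 and 0 to 1 for the knockdown, 0 to 7 and 0 to 15 for the difference, and 6 to 25, 27 to 68 and 3 to 8 for the controls. With 2 arrays a group, 1 array alone is then assumed to vary like the others. The share of all genes called also moved with the array left out, for the drug, the difference and the controls. The ranges are therefore not a property of the splicing genes alone. Dim probe sets have little signal over background, which limits their differences.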
